A study of Homo sapiens with 15 samples.

Results

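SEMA3C, the class 3 semaphorins and their receptors were followed across 5 culture conditions of SKOV3ip1 cells, a line derived from human epithelial ovarian cancer. The set held 10 genes: the ligands SEMA3A, SEMA3B, SEMA3C, SEMA3D, SEMA3E and SEMA3F, the neuropilins NRP1 and NRP2, and the plexins PLXNA1 and PLXNA2. Every probe set whose single gene symbol was one of these was taken, which gave 33 of the 54613 probe sets other than controls, or 10 of 19775 genes. A probe set with 2 symbols, one of them a member, was left out. The set was chosen by the measured log2 values of SEMA3C, which were far lower in the 5-MTF+003 arrays than in the MTF+MORAb0003 arrays, so that difference is a description here and carries no test.

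Messenger RNA was measured on Affymetrix U133 Plus 2.0 arrays and is given as the deposited log2 value of each probe set. The no MTF cells grew without folate in the medium over 7 days. The 5-MTF+003, MTF+MORAb0003, 5-MTF+004 and 5-MTF cells all had folic acid at 2 to 10 nM for 7 days (the labels write nm). Of these, the 5-MTF+003 cells received the 003 antibody, the MTF+MORAb0003 cells the MORAb003 antibody and the 5-MTF+004 cells the control antibody 004, each for 24 hours, and the 5-MTF cells received none. The antibody MORAb-003 recognises folate receptor alpha, the product of FOLR1. Group names are those of the sample titles, whose abbreviation MTF the labels do not explain. Whether 003 and MORAb003 name 1 antibody is not stated in the labels. Each condition was 1 culture and 1 RNA extract, of which 3 aliquots were hybridised, for 15 arrays in all. The p-values below therefore cover only the spread among hybridised aliquots, and the spread between cultures was not measured.

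Class 3 semaphorins are secreted guidance cues, first known from the repulsion of growing axons and later from blood vessels and tumours. They bind neuropilins, which have only short intracellular tails, and the signal is passed into the cell by plexins, whose intracellular part switches off small GTPases of the Ras family. Neuropilins also bind members of the VEGF family, so semaphorins and VEGF share these receptors. SEMA3C binds both neuropilins and has been studied in tumour cell migration, while SEMA3B and SEMA3F are best known as candidate tumour suppressors.

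Of 11 epithelial markers, EPCAM, KRT8, KRT18, KRT19, PAX8 and FOLR1 were never below log2 11.6 on any array. KRT7, MUC1, WFDC2 and CLDN4 read between 7.06 and 9.11, and MSLN did not reach the brightness needed for a test. Leukocyte markers did not exceed 7.24. The fibroblast genes LUM and COL3A1 stayed below 6.35, while COL1A1 read 8.68 to 9.46 and the endothelial gene PECAM1 8.38 to 9.16. Arrays of 1 extract correlated at 0.993 to 0.998 across probe sets, except 5-MTF+004 replicate 1, whose highest correlation with its own extract was 0.95. Results that this array touches are given with and without it. The mean over the endothelial list lay between 7.70 and 7.80 in all 5 groups, over the fibroblast list between 6.67 and 6.99 and over the leukocyte list between 6.51 and 6.66. Over the epithelial list it was 10.84 in no MTF, 10.80 in 5-MTF+003, 10.77 in MTF+MORAb0003, 10.62 in 5-MTF+004 and 10.63 in 5-MTF. Single markers were called. MUC1 differed from 5-MTF by 1.08 and CLDN4 by 0.61 in no MTF, and by 0.63 and 0.59 in 5-MTF+003. KRT8 differed by 0.67 in MTF+MORAb0003 from 5-MTF and by 0.85 from 5-MTF+004, and MUC1 by 0.77 in 5-MTF+003 from 5-MTF+004. The endothelial gene CDH5 differed by 0.80 in MTF+MORAb0003 from 5-MTF+004 (adjusted p = 0.0130). The last 2 were under the fold minimum, at 0.56 and 0.52, without 5-MTF+004 replicate 1. The KRT8 difference from 5-MTF+004 was 0.61 without that array. The part of these markers in the SEMA3C and NRP1 results was not tested.

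SEMA3C lies on chromosome 7 from 80742538 to 80922389 on the minus strand (RefSeq, GRCh38.p14). RefSeq gives it 2 promoters in the table used here. The 250 bases upstream of each are shown because SEMA3C had the widest range of group means of the 33 probe sets. Capitals mark GC boxes (GGGCGG on either strand). The first covers chr7:80919052-80919301 and the second chr7:80922390-80922639, both read 5′ to 3′ on the minus strand.
SEMA3C inner promoter: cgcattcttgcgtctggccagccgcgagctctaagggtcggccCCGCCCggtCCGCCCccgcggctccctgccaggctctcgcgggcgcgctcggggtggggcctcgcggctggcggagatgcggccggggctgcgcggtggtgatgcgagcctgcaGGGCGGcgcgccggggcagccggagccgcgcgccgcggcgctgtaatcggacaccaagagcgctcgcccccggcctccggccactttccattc
SEMA3C outer promoter: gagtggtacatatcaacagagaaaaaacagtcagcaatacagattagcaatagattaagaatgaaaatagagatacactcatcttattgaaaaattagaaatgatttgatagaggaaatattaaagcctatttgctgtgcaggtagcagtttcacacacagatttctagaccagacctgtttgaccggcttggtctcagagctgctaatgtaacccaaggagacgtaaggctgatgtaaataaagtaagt
The inner promoter was 77.6% G and C and held 3 GC boxes, and its GC content was above that of 93.8% of the 35116 promoters in the table. The outer promoter was 36.4% G and C, above 7.22% of them, against a median of 58% over the table. Both strands were also searched for the TATA motif TATAAA, the CCAAT box spelled CCAAT, the AP-1 motif TGANTCA, the E-box CACGTG and the hypoxia motif ACGTG, which the E-box contains. Neither SEMA3C promoter held any of these 5. Over all promoters of the same length, 42.6% held a GC box, 10.7% the TATA motif, 32% the CCAAT box, 6.57% the AP-1 motif, 6.34% the E-box and 18.5% the hypoxia motif. Of the 10 members, 8 had entries, with 16 promoters, of which 9 held a GC box. These matches describe the letters in the window. Which promoter the cells used was not measured.

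SEMA3C was read by a bright and a dim probe set. The bright one, 203789_s_at, read 8.42, 8.58 and 8.46 (log2 level, replicates 1 to 3) in the no MTF arrays. It read 8.28, 8.19 and 8.38 in 5-MTF+003 and 11.23, 11.41 and 11.09 in MTF+MORAb0003. It read 7.82, 9.44 and 9.44 in 5-MTF+004 and 9.81, 9.73 and 9.74 in 5-MTF. The MTF+MORAb0003 arrays were above all others, and the 5-MTF+003 and no MTF arrays were below all 5-MTF arrays. Within 5-MTF+004, replicate 1 was the lowest of the 15 arrays, while replicates 2 and 3 lay just under the 5-MTF arrays.

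The group means of this probe set, low to high, were 8.28 in 5-MTF+003, 8.49 in no MTF, 8.90 in 5-MTF+004, 9.76 in 5-MTF and 11.25 in MTF+MORAb0003. Neighbours in this order did not overlap, except no MTF and 5-MTF+004. With 5-MTF+004 replicate 1 left out the order was the same and no neighbours overlapped.

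**Figure D1:**
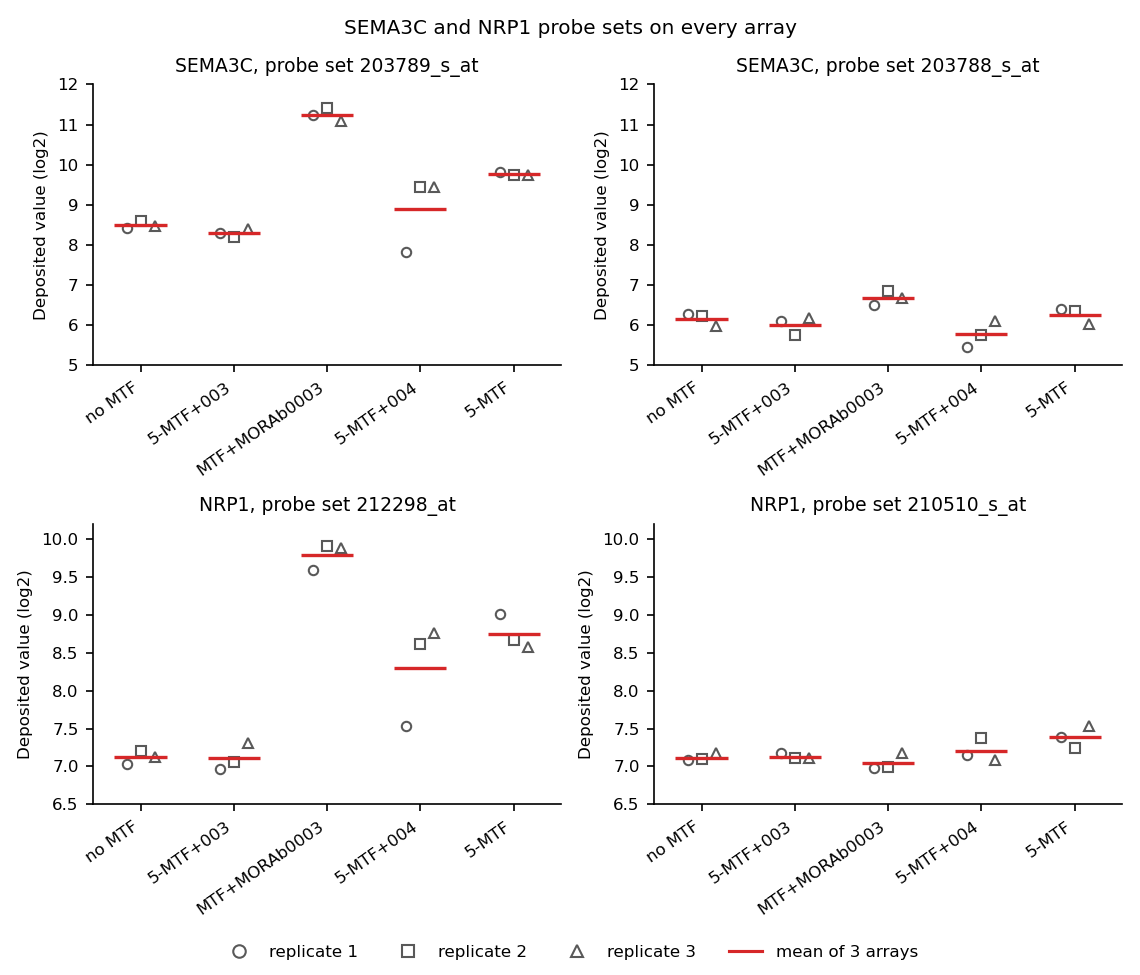
Deposited log2 values of SEMA3C probe sets 203789_s_at and 203788_s_at and NRP1 probe sets 212298_at and 210510_s_at on each of the 15 arrays, by group. Circles, squares and triangles are replicates 1, 2 and 3 and red lines are group means. The bright SEMA3C probe set runs from 7.82 to 11.41 and NRP1 212298_at from 6.97 to 9.91, both highest in MTF+MORAb0003, while NRP1 210510_s_at stays between 6.98 and 7.53.

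The first comparison asked how the cells without folate differed from those with it. SEMA3C fell in the no MTF extract relative to the 5-MTF extract by 1.27 on the log2 scale, 2.41-fold lower (limma, SE 0.30, adjusted p = 0.0342). In a tissue or culture measured in bulk, fewer expressing cells and less RNA per cell cannot be told apart. By the 2 dates in the array names, the difference was -1.27 on the first and -1.28 on the second. In every group the first date holds replicates 1 and 2 and the second only replicate 3, all from the same extract. This holds for all differences by array date below. The call turned on single arrays. It was lost when any one of the 12 arrays outside 5-MTF+004 was left out, with adjusted p from 0.0509 to 0.155 and a difference of -1.32 to -1.24. These were the 3 arrays each of no MTF, 5-MTF+003, MTF+MORAb0003 and 5-MTF. Without 5-MTF+004 replicate 1, which enters only through the shared error, the adjusted p was 2.03e-07 at the same difference.

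Against the 5-MTF extract, the SEMA3C difference was -1.47 (2.78-fold lower) in 5-MTF+003 and 1.49 (2.80-fold higher) in MTF+MORAb0003. Against the 5-MTF+004 extract, it was -0.61 in 5-MTF+003 and 2.35 in MTF+MORAb0003, or -1.15 and 1.81 without 5-MTF+004 replicate 1. The first of these was -0.35 without replicate 2 or replicate 3 of 5-MTF+004. These arrays were used to choose the set, so the 4 differences are descriptions. Those against 5-MTF share its 3 arrays, and those against 5-MTF+004 share its 3. The values in 5-MTF+003 were thus below those of the folate-fed cells without antibody, and the values in MTF+MORAb0003 above them. The 5-MTF+004 extract differed from 5-MTF by -0.86 (SE 0.30, adjusted p = 0.418), or by -0.32 without its replicate 1.

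Set directly against each other, the 5-MTF+003 extract had 8.28 ± 0.10 and the MTF+MORAb0003 extract 11.25 ± 0.16 (SD, n = 3 arrays each) for SEMA3C, a difference of -2.96 or 7.79-fold. It was the third-lowest difference among 14368 genes. In this contrast 2652 genes (18.5%) were lower by at least 1.5-fold and 1132 higher, and nothing is read from the members' place in it. By array date the SEMA3C difference was -3.09 and -2.71. NRP1 differed by -2.68, and the other 5 brighter members lay between 0.16 (PLXNA2) and 0.40 (SEMA3B).

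The dim SEMA3C probe set, 203788_s_at, read 6.27, 6.22 and 5.97 in no MTF and 6.09, 5.75 and 6.17 in 5-MTF+003. It read 6.49, 6.85 and 6.67 in MTF+MORAb0003. It read 5.44, 5.75 and 6.09 in 5-MTF+004 and 6.39, 6.34 and 6.02 in 5-MTF. MTF+MORAb0003 was again above every other array, and the other 4 groups overlapped with their neighbours. Its difference between 5-MTF+003 and MTF+MORAb0003 was -0.66, in the direction of the bright probe set. Between no MTF and 5-MTF it differed by -0.10. It reached the brightness minimum of 6.60 that was set for tests only in MTF+MORAb0003, with a mean of 6.67. The means of 6.15 in no MTF and 6.25 in 5-MTF were below that minimum, so no test of that difference is given.

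The other class 3 ligands were dim or showed small differences. SEMA3A, which repels axons through NRP1, had 3 probe sets, all dim, and none of its 15-array ranges went above 6.36. SEMA3D, with 2 probe sets, did not exceed 6.35, and SEMA3E, which can act on PLXND1 without a neuropilin, did not exceed 4.69. These 3 genes did not pass the brightness minimum and have no test. For SEMA3D probe set 215643_at the no MTF arrays, at 6.17, 6.13 and 6.28, were above all others, the next highest being 6.09 in 5-MTF+003.

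SEMA3B lies on chromosome 3 from 50260226 to 50277546. It read 6.51, 6.60 and 6.37 in no MTF, 6.87, 6.94 and 6.49 in 5-MTF+003 and 6.20, 6.33 and 6.56 in MTF+MORAb0003. It read 7.14, 6.64 and 6.62 in 5-MTF+004 and 6.49, 6.47 and 6.36 in 5-MTF. The groups overlapped with each neighbour in the order of means. SEMA3B reached the brightness minimum only in 5-MTF+003 and 5-MTF+004, the groups with its highest means, and its means in the other 3 groups were below that minimum. It still counts among the members tested in every comparison. In no MTF and MTF+MORAb0003 against 5-MTF, both of its means were below the minimum. The MTF+MORAb0003 extract differed from the 5-MTF+004 extract by -0.43 (adjusted p = 0.0446), a test the gene entered through the higher group, and the difference was under the 1.5-fold minimum. It was -0.26 (adjusted p = 0.0977) without 5-MTF+004 replicate 1. On the first array date that difference was -0.62 and on the second -0.06.

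SEMA3F, a ligand that binds mainly NRP2 (chromosome 3 from 50155058 to 50189075), was read by 3 probe sets. In 35666_at the group means were 8.09 in no MTF, 8.35 in 5-MTF+003, 8.02 in MTF+MORAb0003, 8.17 in 5-MTF+004 and 8.17 in 5-MTF, and no comparison was called. In 209730_at the MTF+MORAb0003 arrays read 7.11, 7.46 and 7.23, against 7.78, 7.93 and 7.74 in 5-MTF+004, and did not overlap with any other group. The difference was -0.55 (adjusted p = 0.00625 over probe sets, or 0.00232 at -0.57 without 5-MTF+004 replicate 1), again under 1.5-fold. Both probe sets were lowest in MTF+MORAb0003 and highest in 5-MTF+003, which for SEMA3C had the highest and the lowest mean. The third probe set, 206832_s_at, was dim.

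**Figure D2:**
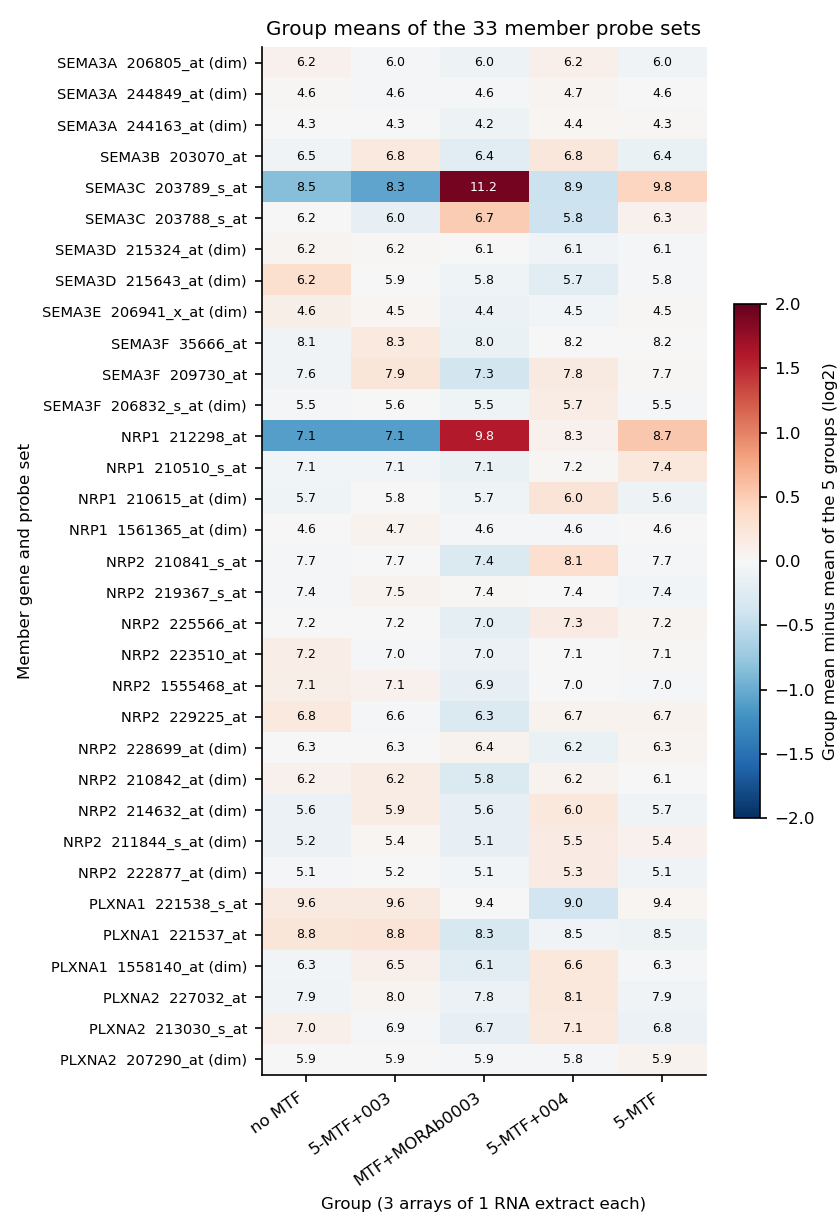
Group means of the 33 member probe sets, printed in each cell as log2 levels, with the colour giving each mean minus the mean of the 5 groups for that probe set. Rows marked dim were below the brightness minimum in every group. SEMA3C 203789_s_at and NRP1 212298_at are the 2 rows whose means span 1 or more on the log2 scale, and 25 rows span less than 0.5.

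Of the receptors, NRP1 had the pattern most like that of SEMA3C among the members. NRP1 lies on chromosome 10 from 33177493 to 33334667. Its brightest probe set, 212298_at, read 7.03, 7.21 and 7.12 in no MTF and 6.97, 7.06 and 7.31 in 5-MTF+003. It read 9.60, 9.91 and 9.88 in MTF+MORAb0003. It read 7.54, 8.62 and 8.76 in 5-MTF+004 and 9.01, 8.66 and 8.57 in 5-MTF. The no MTF and 5-MTF+003 arrays overlapped each other and lay below all the rest, and the MTF+MORAb0003 arrays lay above all the rest. The 5-MTF+004 and 5-MTF arrays overlapped, with or without 5-MTF+004 replicate 1.

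NRP1 fell in the no MTF extract relative to 5-MTF by 1.63 (log2, 3.09-fold lower, SE 0.24, adjusted p = 0.00331). It was thus the second member called in that comparison. Of the 7 members tested there, 2 were lower and 0 higher, where 1.8% of all genes tested were called lower and 0.905% higher. The same 2 members were called without 5-MTF+004 replicate 1, where 5.09% of all genes were called lower. By array date the NRP1 difference was -1.72 and -1.45.

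In the 5-MTF+003 extract NRP1 fell by 1.64 relative to 5-MTF (3.11-fold lower, SE 0.24, adjusted p = 0.00795). It was the 1 member called of 6 tested, where 1.59% of all genes were called lower and 0.432% higher, or 6.45% lower without 5-MTF+004 replicate 1. Relative to 5-MTF+004 it fell by 1.19 (2.29-fold lower, adjusted p = 0.0173), or by 1.58 without 5-MTF+004 replicate 1 (adjusted p = 3.43e-06), again as 1 of 6 members, where 0.397% of all genes were called lower and 3.07% higher, or 5.45% lower without that array. By array date the difference was -1.82 and -1.27 against 5-MTF, and -1.07 and -1.45 against 5-MTF+004. The call against 5-MTF was lost without 5-MTF replicate 1 or 3 or 5-MTF+003 replicate 1 or 2, with an adjusted p of 0.0757, 0.0529, 0.0526 and 0.0575 in that order. That against 5-MTF+004 was lost without any one of the 5-MTF+003 arrays, with an adjusted p of 0.0886, 0.0668 and 0.0540 for replicates 1 to 3.

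In the MTF+MORAb0003 extract NRP1 rose by 1.05 relative to 5-MTF (2.06-fold higher, SE 0.24, adjusted p = 0.0161). Of 6 members tested it was the 1 called, where 4.77% of all genes were called higher and 1.81% lower, or 8.23% higher without 5-MTF+004 replicate 1. Relative to 5-MTF+004 it rose by 1.49 (2.81-fold higher, adjusted p = 0.000992), or by 1.11 without 5-MTF+004 replicate 1 (adjusted p = 1.04e-05). There too it was 1 of 6 members, where 17.6% of all genes were called higher and 2.32% lower, or 9.79% higher without that array, so the members' share was close to that of all genes. By array date the difference was 0.91 and 1.31 against 5-MTF, and 1.67 and 1.12 against 5-MTF+004. The call against 5-MTF was lost without 5-MTF replicate 2 or 3 or MTF+MORAb0003 replicate 2 or 3, with an adjusted p of 0.0748, 0.0751, 0.0713 and 0.0554 in that order. NRP2 was also called once 5-MTF+004 replicate 2 was left out, lower by 0.94 (difference -0.94), in MTF+MORAb0003 than in 5-MTF+004. That call rests on 5-MTF+004 replicate 1, at 8.98, beside replicate 3, at 7.75. Without replicate 1 the NRP2 difference was -0.16 and was not called.

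**Figure D3:**
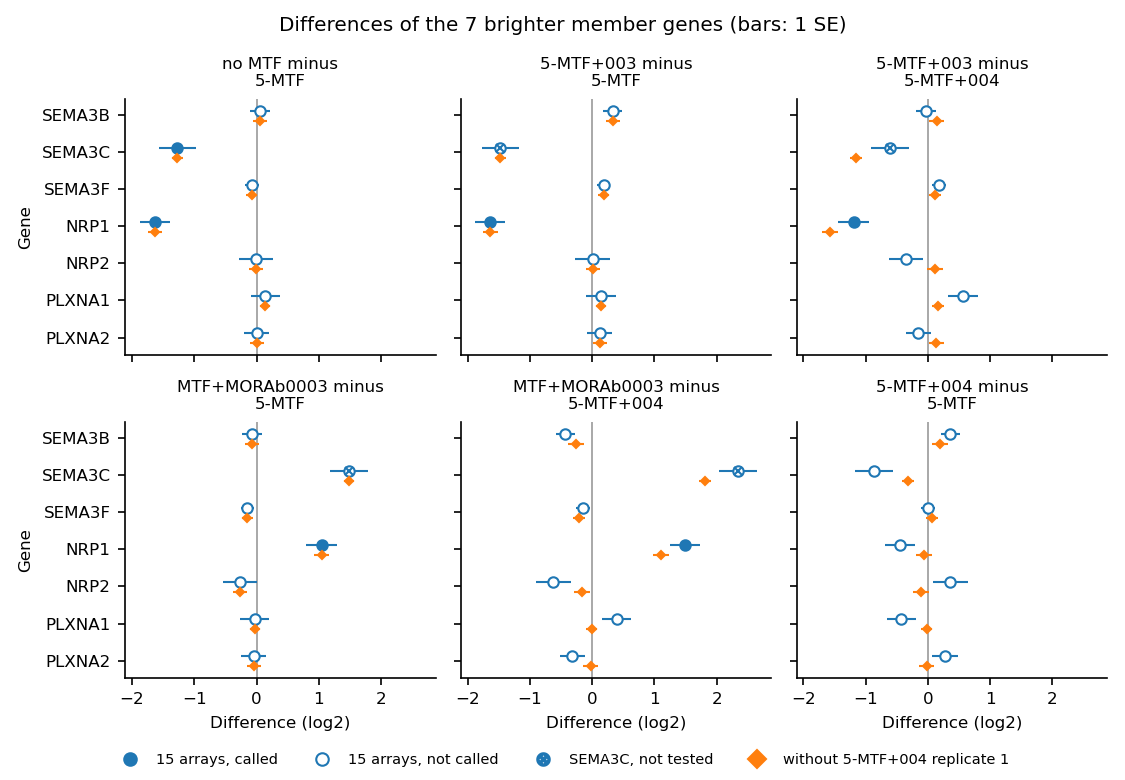
Differences on the log2 scale of the 7 member genes bright enough to be tested, in 6 comparisons, with bars of 1 SE. Blue circles use all 15 arrays (filled where called, crossed for SEMA3C where its arrays chose the set) and orange diamonds leave out 5-MTF+004 replicate 1. NRP1 is called in 5 comparisons, from -1.64 to 1.49, SEMA3C is called at -1.27 in the first panel, and the other 5 genes are called in none.

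The remaining NRP1 probe sets varied less. Probe set 210510_s_at read 7.08, 7.09 and 7.17 in no MTF, 7.17, 7.11 and 7.11 in 5-MTF+003 and 6.98, 6.99 and 7.18 in MTF+MORAb0003. It read 7.15, 7.38 and 7.09 in 5-MTF+004 and 7.39, 7.24 and 7.53 in 5-MTF. All 5 groups lay within 0.34 of each other by their means. Relative to 5-MTF its differences were -0.27 in no MTF (adjusted p = 0.165 over probe sets), -0.26 in 5-MTF+003 (adjusted p = 0.186) and -0.34 in MTF+MORAb0003 (adjusted p = 0.0511). In each of these 3 comparisons the arrays of the 2 groups did not overlap. The first pair had the sign of 212298_at and the last the opposite sign. With 5-MTF+004 replicate 1 left out, the adjusted p was 0.0367, 0.0438 and 0.00825 in that order, with all 3 differences under 1.5-fold. Probe sets 210615_at and 1561365_at were dim, with group means that spanned 0.35 and 0.10. With the 4 probe sets averaged, NRP1 differed from 5-MTF by -0.47 in no MTF, -0.43 in 5-MTF+003 and 0.18 in MTF+MORAb0003, and 0 members were called in any comparison. The NRP1 differences thus rest on 1 of 4 probe sets, and which transcript each one reads was not examined here.

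NRP2, the second neuropilin and a receptor of VEGF-C as well (chromosome 2 from 205682501 to 205798131), had 11 probe sets, of which 6 were bright enough for a test. The gene, represented by 210841_s_at, was not called in any of the 6 comparisons. In 210841_s_at the 5-MTF+004 arrays read 8.98, 7.43 and 7.75, of which replicate 1 was the highest of the 15 arrays. The MTF+MORAb0003 arrays, at 7.37, 7.47 and 7.45, differed from 5-MTF+004 by -0.62 (SE 0.28, adjusted p = 0.0926), or by -0.16 without that replicate. Against 5-MTF the gene differed by -0.01 in no MTF, 0.01 in 5-MTF+003 and -0.27 in MTF+MORAb0003. In 225566_at the MTF+MORAb0003 arrays read 6.92, 7.00 and 6.97, against 7.38, 7.30 and 7.28 in 5-MTF+004. The difference of -0.36 (adjusted p = 0.0158 over probe sets) was under the fold minimum. It was -0.33 without 5-MTF+004 replicate 1 (adjusted p = 0.0137).

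Neither plexin was called in any of the 6 comparisons. PLXNA1, a signalling partner of the neuropilins (chromosome 3 from 126983115 to 127037389), read 9.64, 9.58 and 9.54 in no MTF, 9.51, 9.52 and 9.73 in 5-MTF+003 and 9.28, 9.52 and 9.45 in MTF+MORAb0003 by probe set 221538_s_at. It read 8.22, 9.42 and 9.43 in 5-MTF+004 and 9.52, 9.40 and 9.42 in 5-MTF. Outside 5-MTF+004 replicate 1, all 14 arrays lay between 9.28 and 9.73. The 5-MTF+003 extract differed from 5-MTF+004 by 0.56 (adjusted p = 0.175), or by 0.16 without that replicate.

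By probe set 221537_at PLXNA1 read 8.90, 8.80 and 8.80 in no MTF and 8.69, 8.94 and 8.87 in 5-MTF+003, all above every 5-MTF array, at 8.51, 8.53 and 8.40. The differences were 0.35 and 0.36, with adjusted p of 0.0698 and 0.0795 over probe sets, or 0.00617 and 0.00576 without 5-MTF+004 replicate 1, and both were under 1.5-fold. PLXNA2, the other A-type plexin of the set (chromosome 1 from 208022242 to 208244384), differed from 5-MTF by 0.00 in no MTF, 0.12 in 5-MTF+003 and -0.04 in MTF+MORAb0003 (adjusted p = 0.999, 0.768 and 0.916). Its 5-MTF+004 replicate 1 read 8.73 by probe set 227032_at, the highest of the 15 arrays, against 7.77 and 7.93 in the other 2 arrays of that extract.

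In the comparison of the control antibody with folate alone, 5-MTF+004 against 5-MTF, limma called 0 of 7 members, where 0% of 14368 genes were called. At an unadjusted p under 0.05 there were 2 of the 7 members, SEMA3C and SEMA3B, and 1274 of the 14368 genes, or 481 genes without 5-MTF+004 replicate 1. SEMA3B reached the brightness minimum in this comparison only through 5-MTF+004, where it was higher, so its p is not read as a result. Without 5-MTF+004 replicate 1 the difference went from -0.86 to -0.32 for SEMA3C and from 0.36 to 0.19 for SEMA3B. Over the members tested, the median difference was -0.01 in no MTF against 5-MTF, 0.13 in 5-MTF+003 against 5-MTF and -0.06 in MTF+MORAb0003 against 5-MTF. Over all genes it was 0.01, 0.03 and -0.04 in the same order. The mean in MTF+MORAb0003 was the lowest of the 5 groups in 22 of the 33 probe sets, of which 11 read NRP2. The same count was not made over all probe sets, so it is not read as a trait of the members. The medians of the MTF+MORAb0003 arrays over all probe sets were also the lowest, at no more than 6.54, where the other arrays had 6.57 to 6.67.

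The SEMA3C and NRP1 values varied together with a control for RNA and labelling length, the gap between probe sets at either end of the actin and GAPDH transcripts. The actin 3′ value exceeded the 5′ value by log2 4.09 ± 0.16 in no MTF, 4.02 ± 0.10 in 5-MTF+003, 2.42 ± 0.13 in MTF+MORAb0003, 3.46 ± 0.31 in 5-MTF+004 and 3.24 ± 0.13 in 5-MTF (SD, n = 3 arrays each). For GAPDH the gaps averaged 2.37, 2.49, 1.21, 2.05 and 1.97, with the groups in that order. On such arrays degraded RNA or short labelled copies widen this gap. The groups with the 2 largest gaps had the 2 lowest means of SEMA3C 203789_s_at and NRP1 212298_at, and the group with the smallest gap had the highest. Within 5-MTF+004, whose arrays came from 1 extract, replicate 1 had a gap of 3.82, against 3.28 and 3.27 in replicates 2 and 3, and the lower SEMA3C and NRP1 values. The part of the 3′ minus 5′ gap in the SEMA3C and NRP1 results was not tested, nor was that of the distribution of this array.

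**Figure D4:**
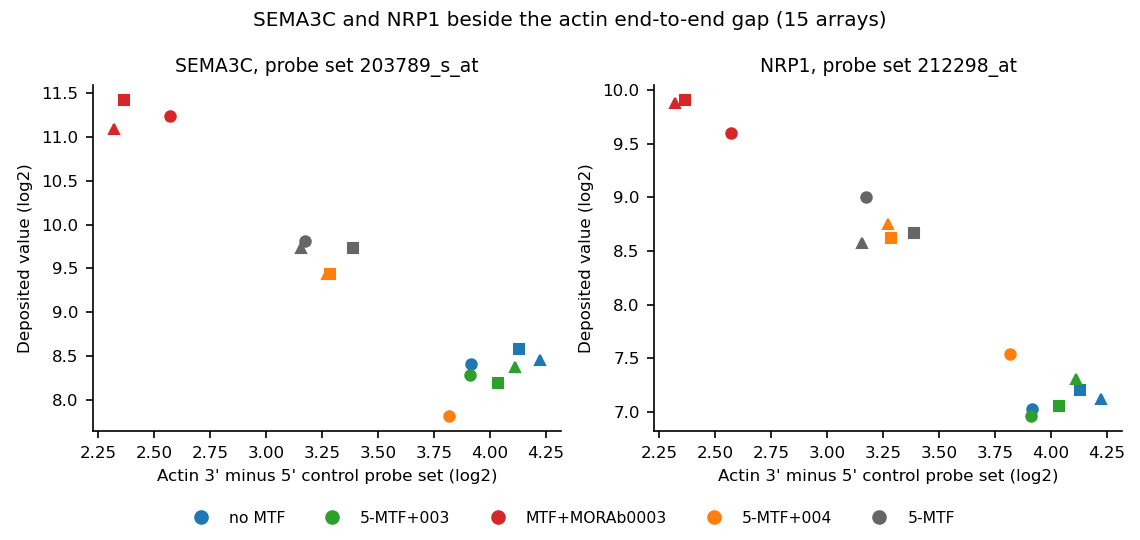
SEMA3C 203789_s_at and NRP1 212298_at (log2 levels, vertical axes) against the actin 3′ minus 5′ gap (log2, horizontal axes) on the 15 arrays, coloured by group. Circles, squares and triangles are replicates 1, 2 and 3. The MTF+MORAb0003 arrays have gaps of 2.32 to 2.57 and the highest values, and 5-MTF+004 replicate 1, at a gap of 3.82, lies apart from the other arrays of its extract.

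The other genes of the pathway were taken from lists. Of 14 other semaphorins, all tested, 0 were called in no MTF against 5-MTF or in 5-MTF+003 against 5-MTF or 5-MTF+004. Of all genes, 1.8%, 1.59% and 0.397% were called lower in these comparisons, in that order, and 0.905%, 0.432% and 3.07% higher. SEMA4B, a membrane-bound semaphorin, averaged 10.93 in MTF+MORAb0003 and 10.16 in 5-MTF and rose by 0.77 (adjusted p = 0.00476). It was the 1 called of 14, where 4.77% of all genes were called higher, so the share was near that of all genes. Against 5-MTF+004, 3 were higher and 1 lower, where 17.6% of all genes were called higher and 2.32% lower, so the share was near that of all genes. SEMA4B rose by 0.82, SEMA4D, the ligand of PLXNB1, by 0.73 and SEMA6A by 0.63, while SEMA6B fell by 0.60 (adjusted p from 0.000538 to 0.0337). With that extract's replicate 1 left out, SEMA4B and SEMA4D were called at 1.01 and 0.74, and SEMA6A and SEMA6B, at 0.29 and -0.52, were under the fold minimum. The median over the 14 was -0.08 against 5-MTF and -0.18 against 5-MTF+004, beside -0.04 and 0.04 over all genes.

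Of 7 other plexins, 0 were called in any of the 6 comparisons, with or without 5-MTF+004 replicate 1. In 5-MTF+004 against 5-MTF 0% of all genes were called. Lower calls covered 1.8% in no MTF and 1.59% in 5-MTF+003 against 5-MTF. Higher calls covered 3.07% in 5-MTF+003 against 5-MTF+004, 4.77% in MTF+MORAb0003 against 5-MTF and 17.6% against 5-MTF+004. With 7 genes, a count of 0 is not read as a result about the plexins. PLXNB2, a receptor of class 4 semaphorins, had group means of 11.67, 11.79, 11.49, 11.34 and 11.61 in no MTF, 5-MTF+003, MTF+MORAb0003, 5-MTF+004 and 5-MTF. PLXND1, the receptor of SEMA3E, had means of 10.50, 10.29, 10.45, 10.09 and 10.17 in the same order. For PLXND1 the MTF+MORAb0003 extract differed from 5-MTF+004 by 0.36 (adjusted p = 0.0252), under 1.5-fold.

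Of 25 genes of plexin and neuropilin signalling tested from a list of 30, 3 were higher in MTF+MORAb0003 than in 5-MTF and 0 lower, where 4.77% of all genes were called higher. DPYSL2, a cytoskeletal protein needed for the axon response to SEMA3A, averaged 10.06 in MTF+MORAb0003 and 8.80 in 5-MTF and rose by 1.26 (adjusted p = 0.00380). RRAS, a small GTPase that plexins switch off, rose by 0.95 (adjusted p = 0.00569). NRCAM, an adhesion molecule that pairs with neuropilins, rose by 0.74 (adjusted p = 0.0280). Against 5-MTF+004, 5 were higher and 0 lower, a share near the 17.6% of all genes called higher there. They were led by DPYSL2 at 1.72, RRAS at 1.34, NRCAM at 1.08 and the exchange factor ARHGEF12 at 0.92. RAP1A, another GTPase that plexins act on, was the fifth, at 0.60. The count was 3 without 5-MTF+004 replicate 1, with ARHGEF12 and RAP1A at 0.56 and 0.33. DPYSL2, RRAS and NRCAM were then at 1.37, 1.09 and 0.80, where 9.79% of all genes were called higher. In no MTF against 5-MTF, and in 5-MTF+003 against 5-MTF or 5-MTF+004, 0 of the 25 were called. Of all genes, 1.8%, 1.59% and 0.397% were called lower there, in that order, and 0.905%, 0.432% and 3.07% higher. With that array left out, RAP1A was lower in no MTF than in 5-MTF (-0.63, adjusted p = 0.000107). RAP1A, DPYSL2 and NRCAM were then lower in 5-MTF+003 than in 5-MTF, at -0.65, -0.62 and -0.67, and RAP1A and NRCAM lower than in 5-MTF+004, at -0.68 and -0.61. Without that array 5.09%, 6.45% and 5.45% of all genes were called lower in these comparisons, in that order. The median over the 25 in MTF+MORAb0003 was -0.02 against 5-MTF and 0.05 against 5-MTF+004, beside the -0.04 and 0.04 over all genes.

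Among 5 tested of 8 VEGF ligands and receptors, PGF, a VEGF family ligand that binds FLT1 and neuropilins, had differences of the opposite sign to those of NRP1 where both were called. It averaged 10.37 in no MTF, 10.07 in 5-MTF+003, 8.73 in MTF+MORAb0003, 9.42 in 5-MTF+004 and 9.49 in 5-MTF. Relative to 5-MTF it rose by 0.88 in no MTF (adjusted p = 0.00270) and fell by 0.76 in MTF+MORAb0003 (adjusted p = 0.00181). It was the 1 called of 5, where 0.905% of all genes were called higher in no MTF and 1.81% lower in MTF+MORAb0003. In 5-MTF+003 it differed from 5-MTF by 0.58 (adjusted p = 0.0222), just under the fold minimum. Relative to 5-MTF+004 it fell by 0.69 in MTF+MORAb0003 and rose by 0.65 in 5-MTF+003, the last not called, at 0.58, without 5-MTF+004 replicate 1. Of all genes, 2.32% were called lower in the first of these comparisons and 3.07% higher in the second. VEGFA, a ligand of NRP1, had means between 9.26 and 9.41 in the 5 groups and was called in no comparison.

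Of 5 proteases that cut semaphorins, ADAMTS1, which cleaves SEMA3C, was called. It averaged 9.06 in MTF+MORAb0003, against 7.61 in 5-MTF and 7.18 in 5-MTF+004, and rose by 1.45 (2.73-fold, adjusted p = 0.000958) and 1.88 (3.68-fold, adjusted p = 8.74e-05). The difference from 5-MTF+004 was 1.57 without that extract's replicate 1. ADAMTS1 was the 1 called of 5 in each of these comparisons. Of all genes, 4.77% were called higher there against 5-MTF and 17.6% against 5-MTF+004. In no MTF ADAMTS1 differed from 5-MTF by -0.54 (adjusted p = 0.159, or 0.000843 without 5-MTF+004 replicate 1), under the fold minimum. FURIN, a convertase that cleaves class 3 semaphorins, differed from 5-MTF by 0.13 in no MTF, 0.16 in 5-MTF+003 and -0.03 in MTF+MORAb0003, and was not called.

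The genes whose 5 group means were most like those of SEMA3C were found by the root mean square difference of the means, each gene centred on its own mean over the 5 groups. They were FZD6 (0.19, log2) and FZD7 (0.21), both receptors of Wnt proteins, COLEC12 (0.22), a scavenger receptor, MANEA (0.22), a mannosidase of glycoprotein processing, and DPYD (0.23), an enzyme of pyrimidine breakdown. FZD6 averaged 7.57 in no MTF, 7.32 in 5-MTF+003, 10.68 in MTF+MORAb0003, 8.42 in 5-MTF+004 and 9.02 in 5-MTF. Like SEMA3C, each of the 5 had its lowest mean in 5-MTF+003 and its highest in MTF+MORAb0003, a likeness for which they were picked. MANEA reached the brightness minimum only in MTF+MORAb0003, at 7.98, with means of 5.38 to 6.29 in the other groups. NRP1 was rank 16 among the tested genes at 0.30, and the other 5 tested members were at ranks 7516 to 11623. Leaving out 5-MTF+004 replicate 1 gave the 5 genes ranks 1, 3, 2, 8 and 6 and NRP1 rank 10. The measure covers 5 means from 5 extracts, and it is a description.

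**Figure D5:**
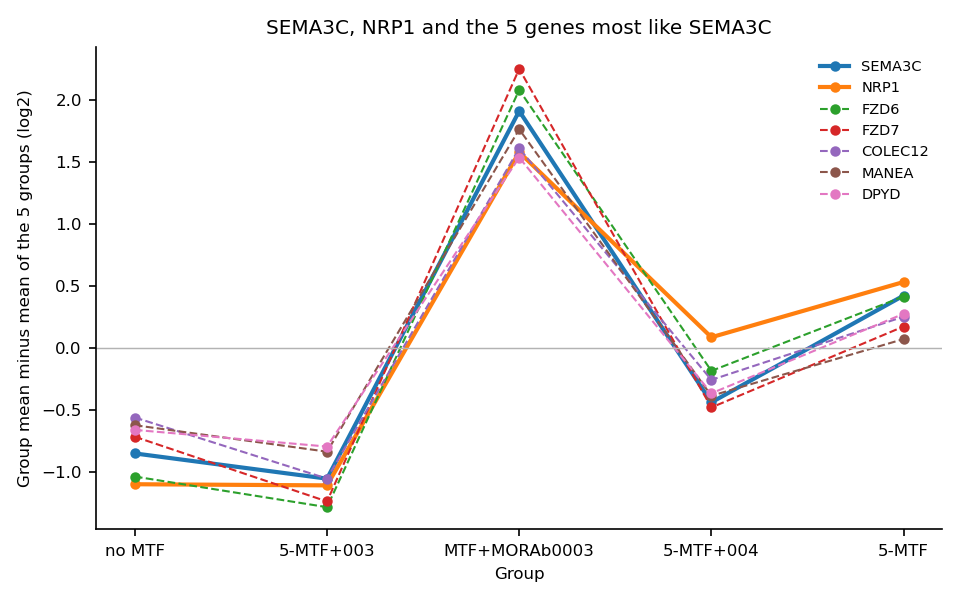
Group means of SEMA3C, NRP1 (solid lines) and the 5 genes with the smallest root mean square difference from SEMA3C (dashed), each minus its own mean over the 5 groups (log2). All 7 genes are highest in MTF+MORAb0003 and lowest in 5-MTF+003, and NRP1 departs most from SEMA3C in 5-MTF+004. The 5 dashed genes were picked for this likeness, and MANEA is below the brightness minimum outside MTF+MORAb0003.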

How the data were processed

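Messenger RNA of SKOV3ip1 cells was measured on 15 Affymetrix U133 Plus 2.0 arrays, 3 aliquots of 1 RNA extract for each of 5 conditions, with biotinylated cRNA prepared as Affymetrix prescribes, per the labels' protocols. The authors deposited log2 values, 1 per probe set and array (4.00 to 15.5), which were used as they are. How they were summarised and normalized is not given in the sources used here. Differences of dim probe sets may be understated on this scale.

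Of 54675 probe sets, 62 controls were left out. In the platform annotation 41091 had 1 symbol, 1801 several and 11721 none, and 41037 were updated through the Entrez identifier with RefSeq genes (GRCh38.p14). Where a gene had several probe sets, the one with the highest mean over all arrays stood for it. A gene was tested if at least 1 group mean reached 6.60, the median of all values, which left 14368 genes. All 15 arrays were fitted with limma 3.58.1 (lmFit and eBayes, R 4.3.3) as 5 group means with 10 residual degrees of freedom. Benjamini-Hochberg adjustment ran over all genes within a comparison, and a gene was called at an adjusted p under 0.05 with at least 1.5-fold. A second fit on 30125 probe sets gave p-values for single probe sets. The script was tested on simulated data. Promoters came from RefSeq tables and were searched with Python 3.11.15. The number of arrays and the single culture limit the precision.

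The members, lists and rules were chosen with earlier results of these data known. Named genes were all 10 members, up to 4 called genes with the largest difference per list and comparison (any list gene could serve as an uncalled example) and the 5 genes most like SEMA3C. RAP1A beside the 4 named signalling genes, and the genes called only without 5-MTF+004 replicate 1, were named after their values were seen. Alternatives were quantile normalization, no filter and a filter at the 75th percentile, averaging a gene's probe sets, a fold minimum of none or 2-fold, the replicate number or array date as a block, 1 array date, only the 6 arrays compared, and leaving out each array.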

Additional observations from a re-analysis of the deposited data

How the results depend on the processing

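Quantile normalization, both other brightness filters, a 2-fold minimum and the array date as a block left the count of called members the same in all 6 comparisons. Averaging a gene's probe sets gave 0 called members in each of the 5 comparisons that had any. Arrays of the first date alone (2 a group) gave 0 in no MTF, 5-MTF+003 and MTF+MORAb0003 against 5-MTF and in 5-MTF+003 against 5-MTF+004. They gave 2 (NRP1 higher, SEMA3B lower) in MTF+MORAb0003 against 5-MTF+004, where no fold minimum also gave 2. SEMA3B was below the brightness minimum in MTF+MORAb0003 and entered that test through the higher group, so its calls there are not read as a result. A fit of only the 6 arrays compared gave 0 in both comparisons with 5-MTF+004 that had a call, and the cause was not tested. Leaving out each array gave 1 to 2 in no MTF against 5-MTF, 0 to 1 in both 5-MTF+003 comparisons and in MTF+MORAb0003 against 5-MTF, 1 to 2 in MTF+MORAb0003 against 5-MTF+004, and 0 in 5-MTF+004 against 5-MTF. The SEMA3C difference of -2.96 between 5-MTF+003 and MTF+MORAb0003 was -1.81 with the mean of probe sets, -2.71 on the second array date, -0.66 with the other probe set and -3.04 to -2.88 without single arrays. Of 250 values of 10 single SEMA3C and NRP1 differences under alternatives, 212 were kept, 36 lost their call, 2 moved and 0 reversed. The SEMA3C differences of 5-MTF+003 and MTF+MORAb0003 carried no test and could not lose a call. All 36 thus fell among the tested differences, whose share that lost its call was larger than 36 of 250. The SEMA3C difference of -0.61 between 5-MTF+003 and 5-MTF+004 was -0.19 with probe sets averaged, -0.39 on the first array date and -1.15 to -0.35 without single arrays. With probe sets averaged, the SEMA3C differences from 5-MTF were -0.86 in 5-MTF+003 and 0.95 in MTF+MORAb0003. Deviations of same-numbered arrays from their group means varied in sign (30 pairs, median r -0.07, r from -0.55 to 0.52, 8 over 0.1). These pairs include 5-MTF+004 replicate 1. The numbers follow the array dates, with replicates 1 and 2 of every group on the first and replicate 3 on the second. The main fit did not pair arrays by number. With the replicate block the counts stayed at 2, 1, 1, 1, 1 and 0. Precision is limited by 3 arrays of 1 extract, and by signal near the brightness minimum for SEMA3B and the second SEMA3C probe set.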
